A study of Homo sapiens with 8 samples.

Results

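Chemokines are small secreted proteins that draw leukocytes and other cells along a gradient, and interleukin 6 (IL-6) and leukaemia inhibitory factor (LIF) are cytokines that signal through the shared receptor chain gp130 to STAT3. Many of these genes are textbook targets of NF-kB, a family of transcription factors held in the cytoplasm by inhibitor proteins until a receptor of IL-1, TNF or microbial products is engaged. In tumours they act on the immune cells, vessels and stroma around the cancer cells as much as on the cancer cells themselves.

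The genes described here are a list of 10 chemokine and cytokine genes, CCL2, CCL8, CCL20, CCL27, CXCL1, CXCL2, CXCL8, CXCL12, IL6 and LIF, taken wherever the array's annotation names a probe set for them. A probe set was named for 8 of the 10, out of 14884 genes named in all, and each of the 8 had a single named probe set. No probe set was named for CXCL1 or IL6 in the annotation used here, and they were not analysed here. The list was drawn up by gene name, but with earlier results of these data known.

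Expression was measured on 8 microarrays of A673 and SK-ES1, 2 human lines of Ewing sarcoma, a bone and soft tissue cancer in which the EWSR1 gene is fused to an ETS gene such as FLI1. The 4 groups, of 2 arrays each, were A673 with a short hairpin RNA against RING1B (shRING1B), A673 with a control hairpin against GFP (shGFP), SK-ES1 with shRING1B and SK-ES1 with shGFP. RING1B is a ubiquitin ligase of Polycomb repressive complex 1, which ubiquitinates histone H2A and helps hold developmental regulators in a repressed state. All groups carry a hairpin, and the labels give neither the time after its delivery nor whether cells were cloned or pooled. The transcript of RING1B itself was not analysed here, so the depth of the knockdown in each line was not measured. The labels do not say whether the 2 arrays of a group are independent cultures, and the p-values therefore rest on the spread between these arrays alone, possibly a technical one. In bulk RNA, fewer cells that express a gene and less RNA per cell cannot be told apart.

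The values are log2 expression, where a difference of 1 is a 2-fold difference, and the array medians lay between 4.01 and 4.10. Arrays of a group correlated at 0.991 to 0.994 across genes, and none stood apart. Of 10 Ewing sarcoma markers 6 were named, with array means of 8.64 and 8.72 in A673 shRING1B, 8.53 and 8.54 in A673 shGFP, 8.12 and 8.17 in SK-ES1 shRING1B, and 8.18 and 8.22 in SK-ES1 shGFP. Of 10 immune markers 4 were named, whose array means over all 8 arrays ran from 4.498 to 4.70. The defining leukocyte gene PTPRC was not among them.

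The stretch of 150 bases before the RefSeq start of transcription (assembly GRCh38.p14, printed on the gene's own strand) is shown for 5 genes whose values are contrasted below. CXCL8 and CXCL2 hold a match to the NF-kB letters searched here. CCL8 and CCL27 are the chemokines with values above their controls in both lines, and CXCL12 is a chemokine with values below them. Capitals mark matches, on either strand, to the NF-kB letters GGANTTTCC, the AP-1 letters TGANTCA and the TATA letters TATAAA.
CXCL8 (chr4:73740419-73740568, plus strand): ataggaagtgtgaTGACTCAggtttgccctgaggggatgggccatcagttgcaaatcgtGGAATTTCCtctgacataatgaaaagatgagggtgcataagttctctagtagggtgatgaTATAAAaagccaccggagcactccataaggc
CXCL2 (chr4:74099196-74099345, minus strand): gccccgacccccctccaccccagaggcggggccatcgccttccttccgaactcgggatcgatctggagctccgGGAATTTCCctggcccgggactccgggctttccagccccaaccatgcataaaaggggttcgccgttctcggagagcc
CCL8 (chr17:34319285-34319434, plus strand): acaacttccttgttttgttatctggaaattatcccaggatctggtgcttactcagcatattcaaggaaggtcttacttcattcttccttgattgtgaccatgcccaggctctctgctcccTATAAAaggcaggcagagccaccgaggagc
CCL27 (chr9:34662658-34662807, minus strand): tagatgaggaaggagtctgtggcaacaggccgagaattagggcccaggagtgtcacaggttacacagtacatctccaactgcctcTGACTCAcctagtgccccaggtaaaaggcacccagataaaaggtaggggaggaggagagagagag
CXCL12 (chr10:44385098-44385247, minus strand): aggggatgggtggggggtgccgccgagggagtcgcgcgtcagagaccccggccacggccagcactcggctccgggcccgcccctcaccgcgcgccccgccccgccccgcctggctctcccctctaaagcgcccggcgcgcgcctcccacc

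The promoter sequences used here covered 6 of the 8 genes, these 5 and CCL20. CCL2 and LIF had no sequence among them and were not searched. The motifs were searched in windows of 300 bases, from 250 before the start to 50 after it, on both strands and without overlap between different motifs in these genes. The NF-kB letters were found in 2 of the 6 windows, at -77 to -69 in CXCL2 and -91 to -83 in CXCL8, against 1.64% of 35116 windows of the same length. The AP-1 letters were found in CCL27 and CXCL8, against 7.71% of windows, and the TATA letters in CCL8, CCL20 and CXCL8, against 11.5%. A match says only that the letters are there. Both NF-kB matches read GGAATTTCC. CXCL2 and CXCL8 are textbook NF-kB targets, so a match in them was likely beforehand. The share of all windows is therefore given as a description and not as a test of the list. A miss says only that these exact letters are absent, and NF-kB elements of other letters were not searched, in CCL20 or elsewhere. The windows also differ in CpG dinucleotides, which number 39 in CXCL12 and 22 in CXCL2, but 4 in CXCL8, 3 in CCL20 and 1 each in CCL8 and CCL27, where the median of all windows is 14.

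Whether RING1B knockdown changed these genes was asked in each line, as shRING1B minus shGFP. CCL2, which attracts monocytes through the receptor CCR2, was the member that changed in A673, and it fell. The other 7 did not pass the test there, and in SK-ES1 none of the 8 did, although CCL2 again lay lower under shRING1B. Averaged over both lines CCL2 fell, and CCL8, a neighbouring monocyte chemokine, rose at a level near the bottom of the array. CXCL8, CXCL2 and CCL20, textbook NF-kB targets like CCL2, showed no difference that the test could call in either line. By group, CCL20 averaged between the 29.4th and 44.3th percentile of the array, and CXCL2 between the 61.3th and 66.9th. CXCL8 averaged at the 25.6th in SK-ES1 shRING1B and the 28.7th in SK-ES1 shGFP, and at the 51.5th and 52.7th in A673. A low level leaves little room for a fall, and detection above background was not measured. In A673, 1 of 8 members was called by limma at an adjusted p under 0.05, against 3.74% of all genes (0.705% higher and 3.04% lower). In SK-ES1, 0 of 8 were called, against 0.0672% of all genes. At an unadjusted p under 0.05 there were 3 of 8 members in A673, against 18.9% of all genes, and 3 of 8 in SK-ES1, against 7.36%. For the mean of both lines 2 of 8 were called, 1 in each direction, against 1.36% of all genes (0.114% higher and 1.24% lower). The groups did not overlap for 6 of 8 members in A673, against 49.9% of all genes, and for 4 of 8 in SK-ES1, against 37.2%.

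**Figure D1:**
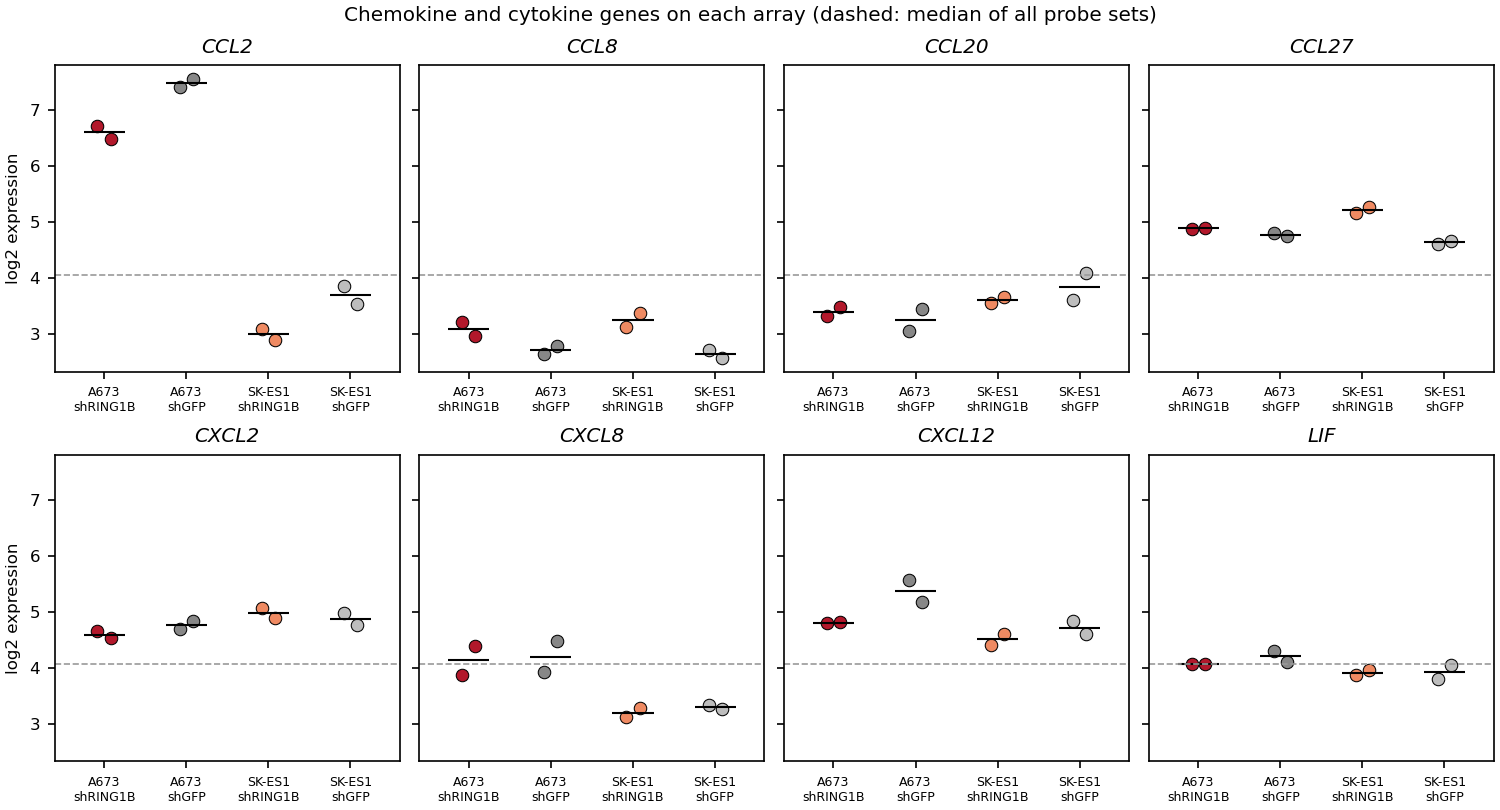
Log2 expression of the 8 genes on each array (points), with group means (bars) and the median of all probe sets, 4.06 (dashed line). CCL2 stands at 6.50 to 7.56 in A673 and at 2.91 to 3.87 in SK-ES1, and in both lines its shRING1B arrays lie below its shGFP arrays.

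CCL2 stood at 6.71 and 6.50 in the A673 shRING1B arrays, against 7.42 and 7.56 in the A673 shGFP arrays. In SK-ES1 it stood at 3.09 and 2.91 under shRING1B, against 3.87 and 3.54 under shGFP. In both lines every shRING1B array was lower than every shGFP array, and the 2 lines were far apart. In A673 the log2 change was -0.88 (standard error 0.15), which is 0.542 of the shGFP level (limma adjusted p = 0.0114 over all genes). In SK-ES1 the difference was -0.70, standard error 0.15 (limma adjusted p = 0.224), starting from a level below the array median. The effect in SK-ES1 minus that in A673 was 0.18, with a 95% interval of -0.28 to 0.65 (limma adjusted p = 0.762). The mean of both effects was -0.79, standard error 0.10 (limma adjusted p = 0.00725).

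The fall of CCL2 in A673 lost its call without A673 shGFP replicate 2, with a change of -0.82 and a limma adjusted p of 0.13, and without A673 shRING1B replicate 2, with -0.78 and 0.0601. The call on the mean was lost without SK-ES1 shRING1B replicate 2 (-0.75, limma adjusted p = 0.0502).

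CCL8, which attracts monocytes and other leukocytes, had 3.23 and 2.96 in A673 shRING1B, against 2.65 and 2.80 in A673 shGFP. The SK-ES1 values were 3.13 and 3.38 under shRING1B, against 2.72 and 2.58 under shGFP. The shRING1B arrays were the higher ones in both lines. All 8 values lay between the 11.3th and the 30.5th percentile of the probe sets of their array, and whether they were above background was not measured. The difference was 0.37 in A673 (limma adjusted p = 0.186) and 0.61 in SK-ES1 (limma adjusted p = 0.303). Their mean, 0.49 with a standard error of 0.10, passed narrowly (limma adjusted p = 0.0461), and 9 of its 14 alternatives did not pass, with an adjusted p of up to 0.163. Cyclic loess and a second quantile normalization each ended the call, as did leaving out any 1 array other than A673 shRING1B replicate 2.

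CCL27, a skin chemokine that draws T cells carrying CCR10, had 5.16 and 5.28 in SK-ES1 shRING1B, against 4.62 and 4.67 in SK-ES1 shGFP. In A673 it had 4.89 and 4.90 under shRING1B, against 4.80 and 4.76 under shGFP. Its shRING1B arrays were above the shGFP arrays in both lines, by more in SK-ES1. The difference was 0.58 in SK-ES1, standard error 0.11 (limma adjusted p = 0.153) and 0.11 in A673 (limma adjusted p = 0.642). The mean of both was 0.34 (limma adjusted p = 0.0644, and 0.0333 when dim probe sets were left out). The effect in SK-ES1 minus that in A673 was 0.47, with a 95% interval of 0.12 to 0.81, which did not pass after adjustment (limma adjusted p = 0.232).

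CCL20, the ligand of CCR6 on lymphocytes and dendritic cells, had 3.33 and 3.49 in A673 shRING1B, against 3.07 and 3.45 in A673 shGFP. Its SK-ES1 values were 3.57 and 3.67 under shRING1B, against 3.61 and 4.10 under shGFP. The groups overlapped in both lines. Neither difference passed, with 0.15 in A673 (limma adjusted p = 0.712) and -0.23 in SK-ES1 (limma adjusted p = 0.855).

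CXCL12, the ligand of CXCR4 and a homing signal for stem and tumour cells, had values of 4.80 and 4.81 in A673 shRING1B, against 5.56 and 5.18 in A673 shGFP. In SK-ES1 they were 4.41 and 4.60 under shRING1B, against 4.82 and 4.61 under shGFP. The shRING1B arrays were the lower ones in both lines, in SK-ES1 by a narrow gap. The difference in A673 was -0.57, standard error 0.15 (limma adjusted p = 0.0723). Another pair of settings put it past the threshold, a trended, robust variance model (0.0488) and leaving out dim probe sets (0.0441). In SK-ES1 the difference was -0.21 (limma adjusted p = 0.839).

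CXCL8 and CXCL2 attract neutrophils through CXCR1 and CXCR2. CXCL8 had 3.87 and 4.38 in A673 shRING1B, against 3.92 and 4.47 in A673 shGFP, and 3.11 and 3.29 in SK-ES1 shRING1B, against 3.33 and 3.26 in SK-ES1 shGFP. The groups overlapped in both lines, and the A673 replicates were further apart than their group means. The difference was -0.07 in A673, with a 95% interval of -0.52 to 0.38 (limma adjusted p = 0.894). In SK-ES1 it was -0.10, with an interval of -0.55 to 0.35 (limma adjusted p = 0.956).

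CXCL2 had 4.65 and 4.52 in A673 shRING1B, against 4.69 and 4.84 in A673 shGFP, where the groups were apart by a narrow gap. In SK-ES1 it had 5.07 and 4.89 under shRING1B, against 4.98 and 4.77 under shGFP, where they overlapped. The differences were -0.18 in A673, with a 95% interval of -0.47 to 0.11 (limma adjusted p = 0.497), and 0.10 in SK-ES1, with an interval of -0.19 to 0.39 (limma adjusted p = 0.926). CXCL2 shares much of its sequence with CXCL1 and CXCL3, and how much its probe set reads their transcripts was not tested.

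LIF, which keeps mouse embryonic stem cells undifferentiated in culture, had 4.07 and 4.06 in A673 shRING1B, against 4.30 and 4.10 in A673 shGFP. In SK-ES1 it had 3.87 and 3.95 under shRING1B, against 3.80 and 4.04 under shGFP. The A673 groups were apart by a narrow gap and the SK-ES1 groups overlapped. Its differences were -0.13 in A673 (limma adjusted p = 0.629) and -0.01 in SK-ES1 (limma adjusted p = 0.997).

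**Figure D2:**
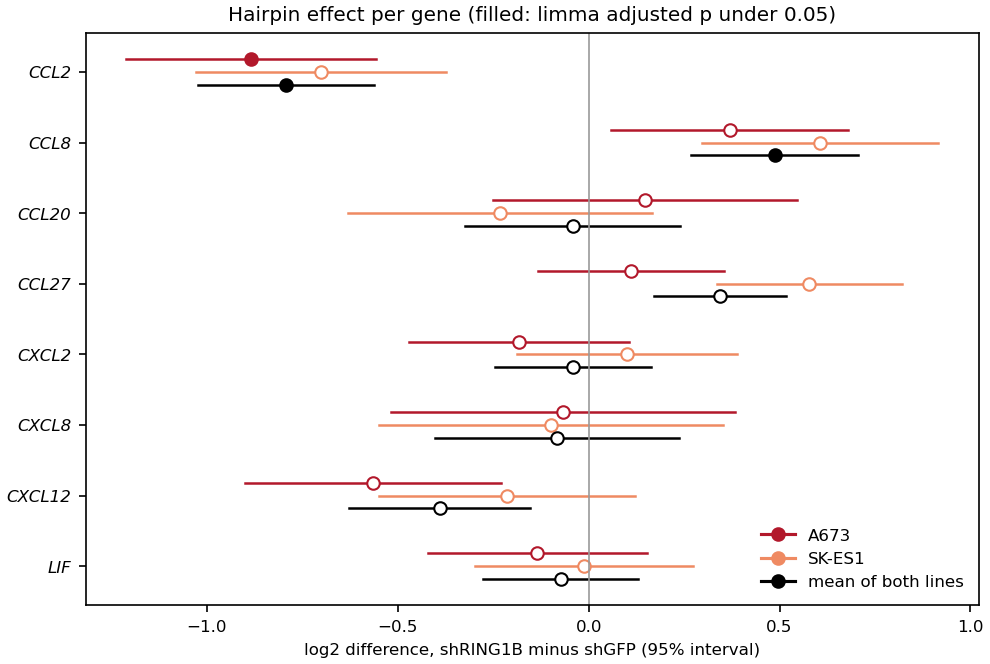
Log2 difference, shRING1B minus shGFP, of each gene in A673, in SK-ES1 and as the mean of both lines, with 95% intervals from limma. Filled points have an adjusted p under 0.05. CCL2 is filled in A673 (-0.88) and in the mean (-0.79), and CCL8 in the mean (0.49).

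The members did not move together. In A673 5 of 8 lay below 0, with a median difference of -0.10 against 0.01 over all genes, and in SK-ES1 5 of 8 lay below 0, with a median of -0.06 against -0.004. CCL2, CCL8, CCL27 and CXCL12 had both shRING1B arrays on the same side of the shGFP arrays in A673 and in SK-ES1, CCL2 and CXCL12 lower and CCL8 and CCL27 higher. That is 4 of 8 members, against 9.98% of all genes. For CXCL12 in SK-ES1 the nearest arrays were 4.601 under shRING1B and 4.608 under shGFP, and CCL8 lay near the bottom of the array. The list is short and was chosen with results known. In the test of the difference between the lines 0 of 8 members were called by limma, against 0.786% of all genes (0.625% higher and 0.161% lower), and CCL27 was the 1 member of 8 with an unadjusted p under 0.05, against 13.7% of all genes, a share near that of the members.

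Between the lines under the control hairpin, 4 of 8 members were called, against 30.7% of all genes, and 6 of 8 did not overlap, against 64.8%. CCL2 was lower in SK-ES1 shGFP than in A673 shGFP by a log2 difference of -3.79, standard error 0.15 (limma adjusted p = 6.4e-08), a 13.8-fold difference. Its level was at the 40.5th percentile of the array in SK-ES1 shGFP and at the 90.7th in A673 shGFP. The line difference was thus larger than the hairpin difference of CCL2 in either line. Of the 7 calls on members made here, this was the one that held in every alternative.

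The other line differences were smaller. CXCL8 averaged 3.30 ± 0.05 in SK-ES1 shGFP and 4.20 ± 0.39 in A673 shGFP (SD, n = 2 each), a difference of -0.90 (limma adjusted p = 0.00693). CXCL12 averaged 4.72 ± 0.15 in SK-ES1 shGFP and 5.37 ± 0.27 in A673 shGFP, a difference of -0.65 (limma adjusted p = 0.00772). CCL20 went the other way, with 3.85 ± 0.35 in SK-ES1 shGFP and 3.26 ± 0.27 in A673 shGFP, a difference of 0.59 (limma adjusted p = 0.0296). CXCL8 lost the call without A673 shGFP replicate 2 (-0.62, limma adjusted p = 0.0657). CXCL12 lost it without A673 shGFP replicate 1 (-0.46, adjusted p = 0.0744) or SK-ES1 shGFP replicate 2 (-0.55, adjusted p = 0.0634). CCL20 lost it without either of these too (0.40 with 0.209, and 0.35 with 0.218), and also under cyclic loess and in a fit to the 4 arrays compared.

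The remaining 4 members did not pass between the lines. LIF differed by -0.28 (limma adjusted p = 0.136), CCL27 by -0.14 (0.395), CXCL2 by 0.11 (0.586) and CCL8 by -0.08 (0.728). Over the 4 groups CCL2 was ordered A673 shGFP, A673 shRING1B, SK-ES1 shGFP and SK-ES1 shRING1B from high to low, with no overlap between neighbours. For CXCL8 both A673 groups lay above both SK-ES1 groups, and within a line the groups overlapped. CXCL2, LIF and CCL20 spanned 0.55, 0.51 and 1.03 log2 units over all 8 arrays.

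The chemokine genes lie in clusters, so the genes beside each member were examined in RefSeq order, taking the 3 nearest measured protein-coding genes on each side. CCL2 and CCL8 lie on chromosome 17 with CCL7 and CCL11 as the measured protein-coding genes between them, and these are related monocyte and eosinophil chemokines. The A673 differences along this row were -0.88 for CCL2, -0.28 for CCL7, -0.26 for CCL11 and 0.37 for CCL8, of which CCL2 was called. In SK-ES1 they were -0.70, 0.19, 0.23 and 0.61, with none called. CCL7 and CCL11 had mean levels of 2.54 to 2.99 in the 4 groups, near the bottom of the array. The gene on the other side of CCL2, the ion channel ASIC2, differed by -0.13 in A673 and -0.10 in SK-ES1. Of 44 distinct neighbours of the 8 members, 2 were called in A673, CXCL5 near CXCL2 and DNER near CCL20, against 3.74% of all genes, and 0 in SK-ES1, against 0.0672%. Neither count stands clear of its background. DNER, a Notch ligand of neurons, fell by 0.95 in A673 (limma adjusted p = 0.0179).

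**Figure D3:**
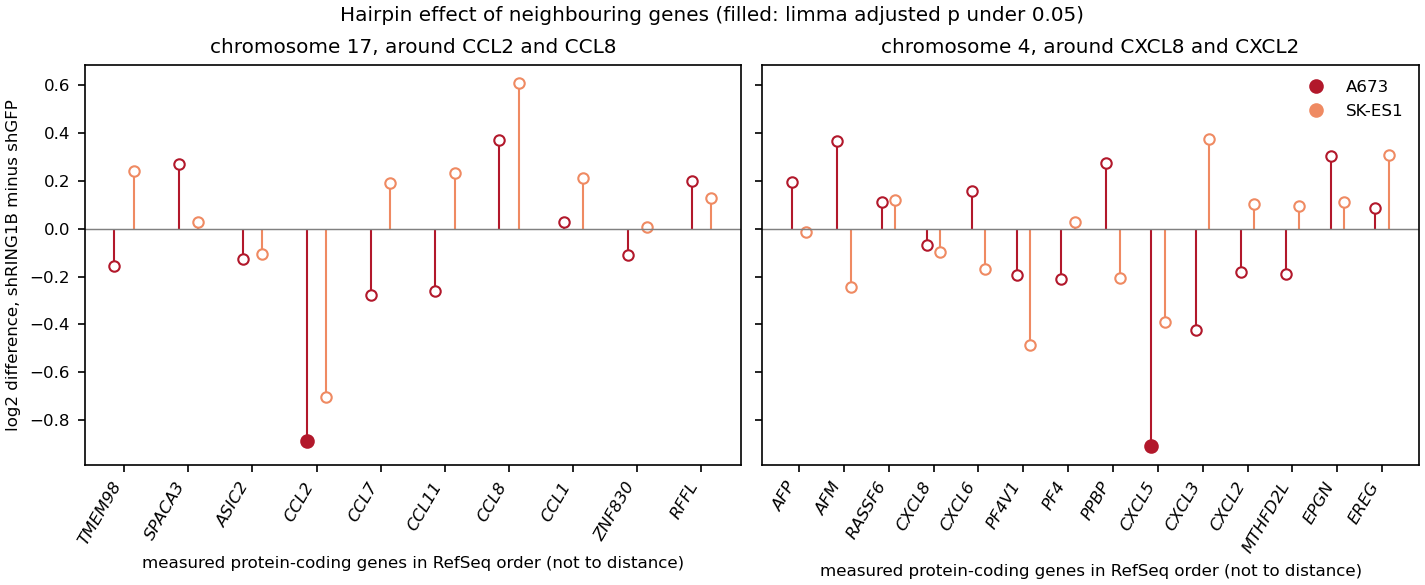
Log2 difference, shRING1B minus shGFP, of measured protein-coding genes around CCL2 and CCL8 and around CXCL8 and CXCL2, in RefSeq order and not drawn to distance. Filled points have an adjusted p under 0.05. CCL2 (-0.88) and CXCL5 (-0.91) are the filled points, both in A673, and their neighbours lie closer to 0.

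Among the other chemokines, 31 of 34 were named, and in A673 2 fell and 0 rose, against 3.74% of all genes called. CXCL5, a neutrophil chemokine of the same cluster as CXCL2 and CXCL8, had 4.06 and 4.18 in A673 shRING1B, against 5.06 and 5.0004 in A673 shGFP. Its SK-ES1 values were 3.78 and 3.91 under shRING1B, against 4.27 and 4.19 under shGFP, so it was lower under shRING1B in both lines. It fell by 0.91 in A673 (limma adjusted p = 0.00255), and the call held in all 16 alternatives. The SK-ES1 difference was -0.39 (limma adjusted p = 0.498), and the mean of both lines was -0.65 (limma adjusted p = 0.0061).

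CXCL17, a mucosal chemokine, had 3.32 and 3.40 in A673 shRING1B, against 4.23 and 4.07 in A673 shGFP. In SK-ES1 it had 4.51 and 4.10 under shRING1B, against 3.97 and 4.04 under shGFP. It fell by 0.80 in A673 (limma adjusted p = 0.0183), and the difference in SK-ES1 was 0.30 (limma adjusted p = 0.711). The call in A673 was lost without any 1 of the 4 A673 arrays, with an adjusted p of 0.0555 to 0.10. CXCL3 differed by -0.42 in A673 (limma adjusted p = 0.102). In SK-ES1 0 of the 31 were called. The smallest p-values there belonged to CXCL11 and CCL5, both also known as interferon-induced, with -0.95 (limma adjusted p = 0.321) and -0.58 (0.338).

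Of the receptors that read these ligands, 19 of 22 were named and 0 were called in either line. For this and the lists that follow, 3.74% of all genes were called in A673 and 0.0672% in SK-ES1, so 0 or 1 call in a list this short is near the background and says nothing about the list. The smallest p-values in A673 were those of the scavenging receptors ACKR4 (0.38, limma adjusted p = 0.22) and ACKR3 (-0.34, 0.221), and of CCR7 (0.26, 0.295). In SK-ES1 they were CX3CR1 (0.49, limma adjusted p = 0.623), CCR8 (0.41, 0.631) and CCR10 (-0.32, 0.69). The median differences of the receptors were 0.05 in A673 and 0.07 in SK-ES1.

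Of the other IL-6 family ligands and receptors 7 of 11 were named, and 1 rose in A673. OSMR, the chain that pairs with gp130 to receive oncostatin M, had 7.55 and 7.62 in A673 shRING1B, against 6.998 and 6.995 in A673 shGFP. In SK-ES1 it had 5.52 and 5.35 under shRING1B, against 6.13 and 5.86 under shGFP. The hairpin groups were apart in both lines, in opposite directions. OSMR rose by 0.59 in A673 (limma adjusted p = 0.0361), and the SK-ES1 difference was -0.56 (limma adjusted p = 0.303). The effect in SK-ES1 minus that in A673 was -1.14, standard error 0.18 (limma adjusted p = 0.0259). The call in A673 was lost in 7 of 16 alternatives. Among them were leaving out any 1 of the 4 A673 arrays and leaving out either SK-ES1 shRING1B array. With an array left out the A673 change ran from 0.55 to 0.62. LIFR, the receptor chain of LIF, differed by -0.31 in SK-ES1 (limma adjusted p = 0.682), CTF1 by 0.34 in A673 (0.275) and 0.25 in SK-ES1 (0.816), and CNTFR by -0.44 in A673 (0.29).

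Downstream of gp130, 0 of 8 named genes of STAT3 signalling and its feedback were called in either line. BCL6 differed by -0.50 in A673 (limma adjusted p = 0.0997), PIM1 by 0.36 (0.134) and SOCS3, the feedback inhibitor of IL-6 signalling, by 0.29 (0.226). In SK-ES1 PIM1 differed by -0.22 (0.772), SOCS3 by 0.17 (0.843) and SOCS1 by 0.20 (0.885).

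Genes of the NF-kB pathway itself were taken as 3 lists. Of 8 named upstream receptors and adaptors of 17, TLR3, the endosomal sensor of double-stranded RNA, fell in A673, with 4.23 and 3.72 under shRING1B against 4.58 and 4.88 under shGFP. Its change was -0.75 (limma adjusted p = 0.0461), and 9 of 15 alternatives did not pass, with an adjusted p of up to 0.321. All 4 A673 arrays but shRING1B replicate 1, and each of the 4 SK-ES1 arrays, ended the call when left out. TLR2 differed by -0.31 (0.178) and IL1RAP by 0.30 (0.182). In SK-ES1 the adaptor MYD88 differed by -0.57 (limma adjusted p = 0.521), TLR2 by 0.22 (0.751) and TLR4 by -0.16 (0.88), with 0 called.

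Of the NF-kB subunits, kinases and inhibitors, 10 of 17 were named and 0 were called in either line, with differences from -0.22 to 0.14 in A673 and from -0.30 to 0.14 in SK-ES1. In A673 NFKB2 had -0.22 (limma adjusted p = 0.413), REL -0.18 (0.522) and the deubiquitinase CYLD 0.14 (0.587). In SK-ES1 CYLD had -0.30 (0.649), REL -0.25 (0.768) and TNIP1 0.14 (0.889). The inhibitor genes NFKBIA and TNFAIP3 were not among the named genes.

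Among 12 named NF-kB targets of 22 outside the list, 0 were called in either line, and the medians were 0.02 in A673 and 0.03 in SK-ES1. PTGS2, the inducible cyclooxygenase, differed by -0.68 in A673 (limma adjusted p = 0.0914, and 0.0487 with a trended, robust variance model). CSF1, a growth factor of macrophages, differed by -0.45 (0.0924) and the adhesion gene ICAM1 by -0.28 (0.327). In SK-ES1 TNF differed by -0.42 (limma adjusted p = 0.557), CSF1 by -0.23 (0.772) and CSF3 by 0.19 (0.891).

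Of 12 AP-1, EGR1 and C/EBP factors 9 were named, and 0 were called in either line. FOSL2 differed by 0.50 in A673 (limma adjusted p = 0.0728), FOSL1 by 0.76 (0.178) and FOSB by -0.32 (0.27). FOSL2 passed with the trended, robust variance model (0.0496) and with dim probe sets left out (0.0440). FOSL1 moved with single arrays, to 1.29 without A673 shRING1B replicate 1 (limma adjusted p = 0.0131) and to 0.23 without A673 shRING1B replicate 2 (0.591). In SK-ES1 JUNB differed by -0.38 (0.611), EGR1 by -0.37 (0.867) and JUN by -0.26 (0.903).

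**Figure D4:**
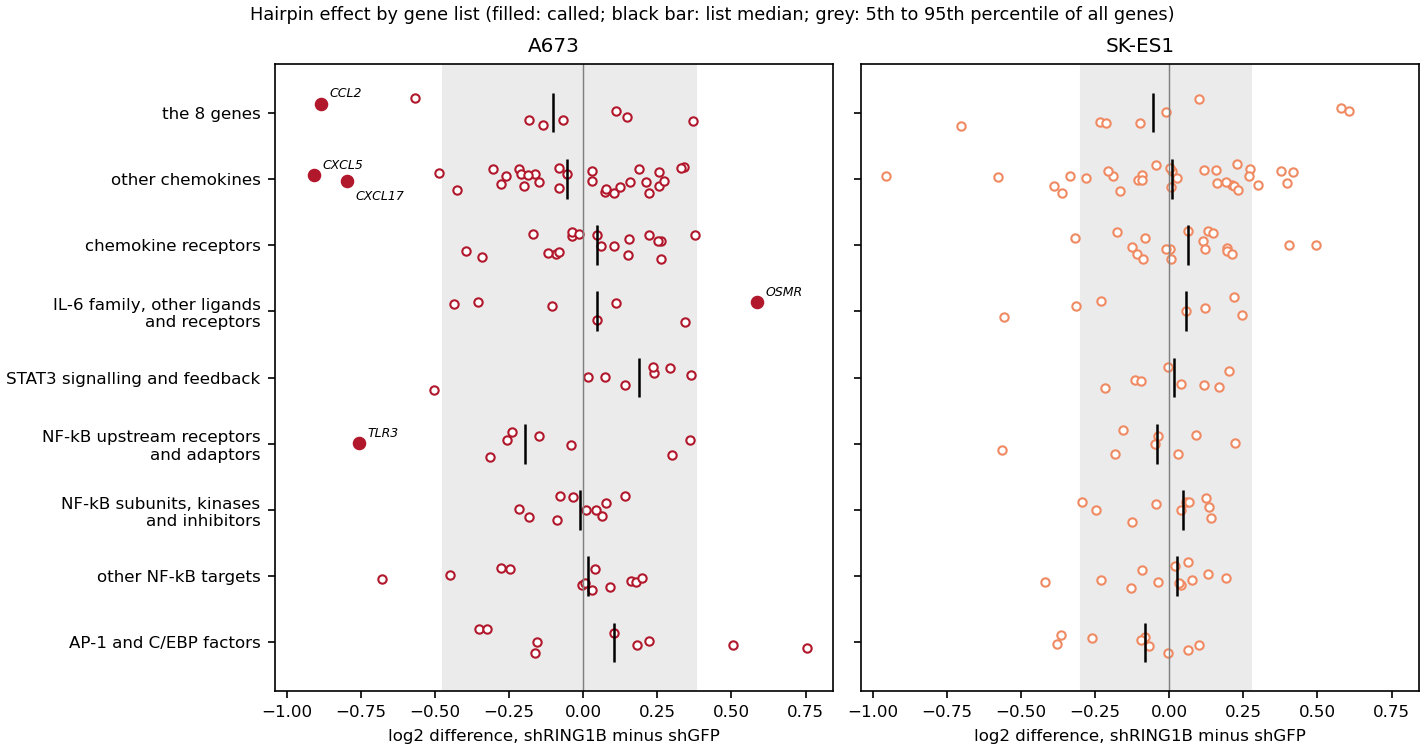
Log2 difference, shRING1B minus shGFP, of every named gene of each list in A673 (left) and SK-ES1 (right). Filled points have an adjusted p under 0.05, black bars are list medians and grey bands span the 5th to 95th percentile of all genes. In A673 CCL2, CXCL5, CXCL17 and TLR3 are filled below 0 and OSMR above it, and in SK-ES1 no point is filled.

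Between the lines under shGFP, 17% of all genes were called lower in SK-ES1 and 13.7% higher. SK-ES1 shGFP was lower than A673 shGFP for 5 of 8 genes of STAT3 signalling and feedback, with 1 higher. It was lower for 4 of 7 other IL-6 family genes with 0 higher, and for 5 of 12 other NF-kB targets with 1 higher. The other chemokines had 5 lower and 4 higher of 31, the chemokine receptors 2 and 2 of 19, and the AP-1, EGR1 and C/EBP factors 2 and 1 of 9. The upstream NF-kB receptors and adaptors had 1 lower and 1 higher of 8, and the NF-kB subunits, kinases and inhibitors 2 lower and 0 higher of 10. OSMR differed by -1.005 (limma adjusted p = 0.000197), TLR3 by -1.42 (0.000163) and CXCL5 by -0.80 (0.000451). CXCL17 differed by -0.15 and did not pass (0.488). CXCL11 and MYD88 were higher in SK-ES1 shGFP, by 2.57 (limma adjusted p = 1.47e-05) and 1.18 (0.000549). The lowest value of the other chemokines was that of CXCL14, called at -3.50, with means of 3.85 in SK-ES1 shGFP and 7.35 in A673 shGFP.

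The protein-coding genes with profiles most like that of CCL2 over the 8 arrays were STC1, EFR3A, ECD, CLIP1 and ANKFY1, with Pearson correlations of 0.997 to 0.999. The line difference dominates such a correlation over 8 points that share 2 lines. STC1, which encodes the secreted hormone stanniocalcin-1, came closest to CCL2 of the 5 in the size of its line and A673 differences. It differed by -2.52 between SK-ES1 shGFP and A673 shGFP and fell by 0.52 in A673 under shRING1B (limma adjusted p = 0.0427). In SK-ES1 under shRING1B STC1 differed by -0.31 and EFR3A by -0.38. For CCL8 the nearest were SEMG2, NKAPL, C9orf50, CNGB3 and FBN3, at 0.90 to 0.953, with A673 differences of 0.12 to 0.26 and SK-ES1 differences of 0.21 to 0.43.

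No marker of another cell type was called by limma in either hairpin comparison, but the mean levels of some lists did not overlap between hairpins. The 3 named fibroblast markers of 8 had array means of 4.61 and 4.65 in A673 shRING1B against 4.29 and 4.42 in A673 shGFP. They had 4.97 and 5.24 in SK-ES1 shRING1B against 5.25 and 5.42 in SK-ES1 shGFP, the reverse direction. Single fibroblast markers differed by 0.11 to 0.54 in A673 and by -0.64 to -0.01 in SK-ES1. The 4 named endothelial markers of 6 had 3.94 and 4.11 in A673 shRING1B against 4.20 and 4.22 in A673 shGFP, and 3.98 and 4.16 in SK-ES1 shRING1B against 3.995 and 4.04 in SK-ES1 shGFP, apart in A673 and overlapping in SK-ES1. The 4 named immune markers of 10 had 4.68 and 4.70 in A673 shRING1B against 4.52 and 4.57 in A673 shGFP, which were apart. In SK-ES1 they had 4.50 and 4.70 under shRING1B against 4.59 and 4.69 under shGFP, which overlapped. Single endothelial markers differed by -0.45 to 0.15 and single immune markers by -0.20 to 0.45 in A673. Their part in the result was not tested.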

How the data were processed

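Per the labels' protocols, total RNA of 8 samples was labelled with the Affymetrix WT PLUS kit. The deposited values are log2 expression per probe set, made by the authors with RMA, which corrects background, normalizes arrays by quantiles and summarises probes; the submitters' processing notes name RMA and limma without versions. Such values hide a shift common to most genes. Of 48144 probe sets, 16098 had 1 gene symbol, 0 several and 32046 none in the platform annotation used here. Where a gene had several probe sets, the brightest on average was used. No filter on low values was applied, so all 8 members were tested. Detection above background was not measured, because scanner files were not analysed here, and with 2 arrays a group their number limits the precision. The genome build behind the array's annotation is not given in the sources used here.

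A model with 4 group means was fitted to 14884 genes with limma 3.58.1 in R 4.3.3 (4 residual and 6 prior degrees of freedom). P-values are two-sided, from limma's moderated test, and Benjamini-Hochberg adjusted over all genes of a contrast, and a gene was called under 0.05. Contrasts were shRING1B minus shGFP per line, their mean, their difference and SK-ES1 minus A673 under shGFP. An exact permutation of 2 against 2 arrays cannot go below p = 0.333 and was not used. The fitting script was tested on simulated data for the A673 comparison, with 100 of 14884 genes changed at each of 2 sizes. It called 29% of true log2 changes of size 0.5 and 99% of those of size 1. A member that did not pass may therefore still have changed by about 0.5. The members and gene lists were chosen with earlier results of these data known. All members are named. From each wider list the text names called genes and the 3 with the smallest p per line, plus neighbours and most similar genes. CCL7, CCL11, ASIC2 and DNER are named as neighbours, and CXCL14 for its difference between the lines. PTPRC, NFKBIA and TNFAIP3 are mentioned as not named on the array's annotation. Replicate numbers follow the order of deposit and only name arrays. The labels give no batch, slide or scan date. Alternatives were 2 normalizations, a trended variance model, array weights, a dim filter, the mean of all probe sets, adjustment over protein-coding genes, the arrays of a comparison alone and each array left out.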

Additional observations from a re-analysis of the deposited data

Results flagged for a closer look

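For 9 genes named above, both shRING1B arrays lay on opposite sides of the shGFP arrays in the 2 lines, or limma called the difference between the lines. Over all genes, limma called that difference for 0.786%, and the share with arrays on opposite sides was not counted. Groups did not overlap, in either direction, for 49.9% of all genes in A673 and for 37.2% in SK-ES1. The count of 9 is therefore not read as high. Most genes outside the list were named for a call or a small p in these same comparisons, so the choice itself favours such genes. The difference, SK-ES1 minus A673, was called for OSMR (-1.14, limma adjusted p = 0.0259) and CXCL17 (1.10, limma adjusted p = 0.0459). The OSMR call was lost in 7 of 15 alternatives and the CXCL17 call in 10 of 14. For the other 7 the test of the difference did not pass. CXCL3 had 0.80 (limma adjusted p = 0.0841), MYD88 -0.92 (0.143), PIM1 -0.58 (0.18), CX3CR1 0.89 (0.195), TLR2 0.54 (0.196), ACKR4 -0.48 (0.366) and LIFR -0.42 (0.395). None of the 8 chemokine and cytokine genes of the list met either condition.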

How the results depend on the processing

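Members called in A673 numbered 1, and 2 with the trended, robust variance model and with dim probe sets left out (CXCL12 beside CCL2), and 0 to 1 with each array left out. For the mean of both lines the count was 2, and 1 with quantile normalization repeated and 1 with cyclic loess, where CCL8 lost its call, and 0 to 2 with each array left out. Between the lines under shGFP it was 4, and 2 with dim probe sets left out, where 4 of the 8 members were tested, and 2 to 4 with each array left out. It was 0 in SK-ES1 and 0 for the difference between the lines in every alternative run. Over all genes, A673 calls numbered 557, against 1052 with the trended, robust model, 213 with the A673 arrays alone and 101 to 434 with an array left out. SK-ES1 calls numbered 10, against 34 with that model, 21 with dim probe sets left out and 2 to 7 with an array left out. For the mean these counts were 202, 481, 337 and 51 to 158, and for the difference of the lines 117, 281, 179 and 0 to 72 (0 without SK-ES1 shRING1B replicate 1). Cyclic loess gave 78 for that difference.

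Of 40 member values, 30 kept their direction in every alternative. The other 10 changed sign only with an array left out, and none of these was called. Their ranges were -0.0441 to 0.34 (CCL20, A673), -0.48 to 0.0120 (CCL20, SK-ES1), -0.16 to 0.0799 (CCL20, mean), -0.00424 to 0.21 (CXCL2, SK-ES1), -0.0933 to 0.0121 (CXCL2, mean), -0.34 to 0.21 (CXCL8, A673), -0.22 to 0.0544 (CXCL8, mean), -0.30 to 0.24 (CXCL8, difference of the lines), -0.14 to 0.11 (LIF, SK-ES1) and -0.000682 to 0.25 (LIF, difference of the lines). Among the wider lists, SOCS3 in SK-ES1 was -0.15 with the mean of all probe sets of a gene, and the ranges with an array left out crossed 0 for OSMR (mean, -0.0527 to 0.0823), SOCS1 in SK-ES1 (-0.0633 to 0.466) and JUN in SK-ES1 (-0.609 to 0.0878). The cause was not tested. No paired analysis was run, because the labels state no pairing of arrays across groups. How far the dimmest probe sets, CCL8 among them, lie above background was not measured.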
